A study of Brassica rapa with 38 samples.

Results

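In the libraries used here, a set of 100 gene models had higher transcript levels in diploid than in monoploid young leaves of *Brassica rapa*. Their levels were higher again in autotetraploid leaves. The genes were chosen by their measured TPM values. TPM gives the share of a gene model in all transcripts of a library, on a scale with the same total for each. A gene model was eligible if it lay on chromosome A01, A03, A05, A06, A07, A08 or A10, had a TPM of at least 1 in all 8 RNA-seq libraries and had a mean TPM of at most 500. A block of repeated genes on A06 was left out. Of the 46479 gene models in the tables, 31495 lay on these chromosomes outside the block, 15143 of them had a TPM of at least 1 in every library, and 14995 were eligible. A gene was taken if every diploid library lay above every monoploid library, every autotetraploid library lay above every diploid library, and the log2 ratio of the group means was at least 0.3 at both steps. The first step is diploid over monoploid and the second is autotetraploid over diploid. The 100 genes were 0.667% of the eligible ones. A further 52 gene models met the order but fell under a TPM of 1 in monoploid libraries only, counted without a condition on the steps. The set thus holds no gene that is near absent in monoploid leaves. The second rise is a description of these libraries only. A linear model called 0 of the 100 genes at that step. With the monoploid labels kept, 4 of the 10 assignments of the other labels gave 100 or more genes. When 5 libraries chose the genes, the median second step in libraries left out was 0.08 over 18 choices, against 0.41 to 0.48 in those used.

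The study set 3 ploidy levels of 1 inbred line, labelled 85_1, against each other to ask how successive genome doubling changes chromatin, transcription and leaf traits. Monoploid plants carry a single copy of the genome and were regenerated from cultured microspores, the diploid was obtained from the monoploid with colchicine, and the autotetraploid was obtained from the diploid with colchicine. All were propagated by tissue culture and grown in a greenhouse, and inner young leaves were sampled 60 days after sowing, around the start of heading. There were 3 monoploid, 2 diploid and 3 autotetraploid libraries. The series describes 3 RNA-seq replicates for each ploidy level, but its samples list 2 diploid RNA-seq libraries, and both were used. The labels name no other treatment and no transgene. The labels call the libraries biological replicates without saying which plants each holds, so the spread given below is that between these libraries and may be partly technical.

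Whole-genome doubling adds a copy of every gene at once, so that the ratio of one gene to another is kept at the level of DNA. RNA-seq values scaled to a common total show only changes in the share of a transcript. A gene whose output per cell rises as much as that of all other genes keeps its TPM, and a gene that rises at both steps has gained a larger share of the leaf's transcripts each time. In bulk leaves, a change in the proportion of cells that express a gene and a change in its transcripts per cell cannot be told apart.

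The depth of the libraries, as the ratio of coverage to FPKM, was 5.86 to 8.06 Gb of aligned bases, and 29720 to 31453 gene models had a value above 0. A TPM of 1 corresponded to a mean depth of 4.94 to 7.32 reads over each base, and the lowest coverage of any of the 100 genes in any library was 5.29. The table of diploid replicate 2 stood apart in form, with another row order and more decimals, and the sum of its FPKM values was 93.1% of the sum of its TPM values, against 80.1% to 85.5% in the others. With FPKM in place of TPM, 44 genes met the rule, 37 of them among the 100. Because the tables give no gene names, the leaf identity of the samples was not checked against marker genes. The genes are named by their IDs, no function is given for them, and their positions are those of the tables, whose genome build is not given in the sources used here.

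In TPM as deposited, the 100 genes rose more at the first step than at the second. The median first step was 0.88 on the log2 scale, or 1.84-fold, with quartiles of 0.66 and 1.301 and a range of 0.31 to 4.04. The median second step was 0.46, or 1.38-fold, with quartiles of 0.37 and 0.60 and a range of 0.30 to 2.101. From monoploid to autotetraploid the median ratio was 2.71-fold, from 1.57-fold to 30.3-fold, and it was at least 2-fold in 82 genes, at least 4-fold in 23 and at least 8-fold in 7. These values chose the genes and are given as a description only.

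**Figure D1:**
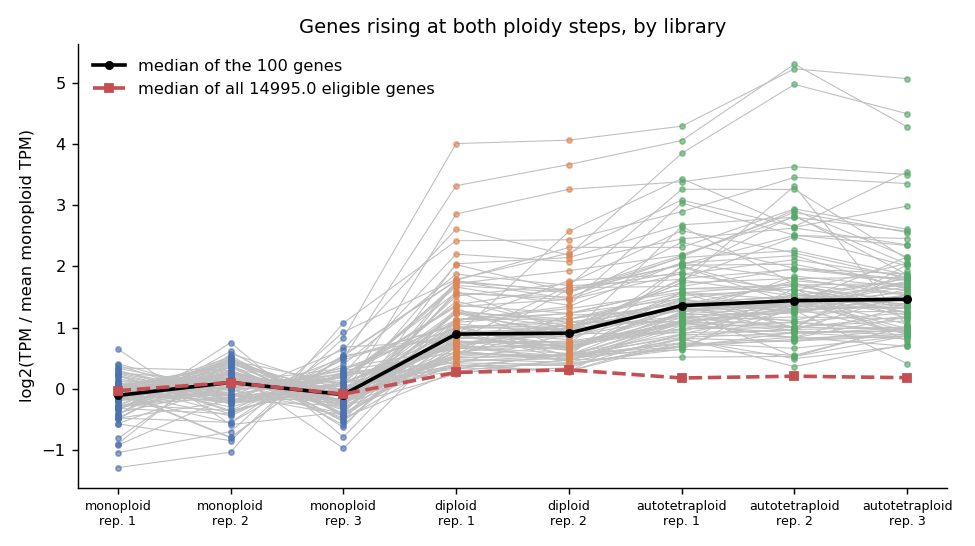
TPM of the 100 genes in each of the 8 libraries, as log2 of the ratio to the gene's mean monoploid TPM. Grey lines join the values of 1 gene, points are single values, the black line is the median of the 100 genes and the dashed red line that of all 14995 eligible genes. The median of the 100 genes was 0.89 and 0.91 in the diploid libraries and 1.36 to 1.46 in the autotetraploid libraries, while that of all eligible genes was 0.27 and 0.31, then 0.17 to 0.20.

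The second step of the 100 genes was upward where that of most eligible genes was downward. Over all 14995 eligible genes, the median first step was 0.29 and the median second step was -0.09. The first step was above 0 in 71.97% of eligible genes, the second in 29.7%. The median second step of all eligible genes was nearer to 0 after rescaling, at -0.03 with median-ratio rescaling and -0.05 with quantile normalization. Relative to these medians, the 100 genes stood 0.59 higher at the first step and 0.55 higher at the second, so that much of the difference between their steps is also the difference between the steps of all genes. After subtraction of the median of all eligible genes, 79 of the 100 still had a first step of at least 0.3. All 100 had such a second step, but this was fixed in advance. The rule asks for a second step of at least 0.3, and the median subtracted there was -0.09.

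With TPM as deposited, most genes shared the unequal split between the steps. With median-ratio rescaling, the median steps of the 100 genes were 0.62 and 0.52, and the counts below were not made for it. The first step was the larger in 89 of the 100 genes, and it exceeded 2 times the second in 44. The reverse, a second step over 2 times the first, was seen in 1 gene. The steps lay within 0.2 of each other in 26 genes, and the first step made up a median of 64.6% of the total log2 rise. Both steps were at least 0.5 in 40 genes and at least 1 in 6, while 43 genes had a first step of at least 1 and 9 genes had a second step of that size.

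**Figure D2:**
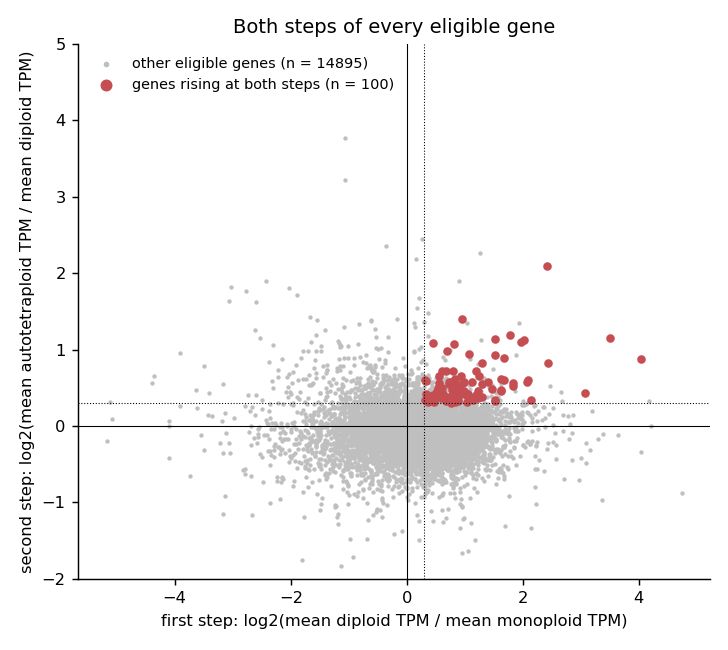
First step (log2 of mean diploid over mean monoploid TPM) against second step (log2 of mean autotetraploid over mean diploid TPM) for every eligible gene. Red points are the 100 genes rising at both steps, grey points the other eligible genes, and dotted lines the smallest step of 0.3. Grey points past both dotted lines are genes whose libraries overlap between groups, and most red points lie further to the right than they lie high.

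The largest smaller step belonged to BRA07G007491 (A07:34208938-34210017, minus strand). Its TPM was 1.60, 2.78 and 4.72 in the monoploid libraries, 18.6 and 13.8 in the diploid libraries and 43.8, 95.8 and 68.7 in the autotetraploid libraries. The groups were far apart, with a gap of 1.24 on the log2 scale between the higher diploid and the lowest autotetraploid library, the widest gap at that step in the set. Its group means of 3.03 ± 1.58 (SD, n = 3), 16.2 ± 3.35 (SD, n = 2) and 69.4 ± 26.0 (SD, n = 3) correspond to steps of 2.42 and 2.101. It was 1 of 6 genes with a rise of at least 2-fold at each step, on the scale of TPM ratios, and its second step was the largest of the 100.

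BRA07G005637 (A07:24687154-24688275, minus strand) was among the most abundant genes of the set. Its TPM was 56.3, 43.5 and 78.0 in monoploid, 217 and 191 in diploid, and 569.5, 568 and 258 in autotetraploid leaves. Autotetraploid replicate 3 lay much nearer to the diploid libraries than to the other autotetraploid libraries, and the gap to the higher diploid library was 0.25. The steps were 1.78 and 1.19 on the log2 scale, and the second rests to a large part on replicates 1 and 2.

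BRA08G0010469 (A08:16369837-16370882, minus strand) rose mostly at the first step. Its TPM went from 3.24, 2.40 and 4.99 in monoploid to 35.5 and 45.1 in diploid and 59.2, 141 and 69.1 in autotetraploid leaves. The first step was 3.51 and the second 1.16. The groups did not overlap, but autotetraploid replicate 2 lay well above the other autotetraploid libraries, with a range of 1.25 on the log2 scale within that group.

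The gene with the largest first step was BRA07G006726 (A07:30225095-30225904, plus strand). Its TPM was 1.37, 1.13 and 3.63 in monoploid, 33.0 and 34.3 in diploid, and 40.2, 77.0 and 68.9 in autotetraploid leaves. Both diploid libraries were nearly the same and stood far above the monoploid ones. The first step was 4.04 and the second 0.88, which gave the largest total of the set, 30.3-fold.

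Another gene with a large first step was BRA03G0028394 (A03:20730357-20730959). It had a TPM of 7.63, 14.8 and 9.90 in monoploid, 78.3 and 104 in diploid, and 113, 134 and 122 in autotetraploid leaves. The lowest autotetraploid library lay 0.12 above diploid replicate 2 on the log2 scale, and most of the rise was in place in the diploid. Its steps were 3.08 and 0.44.

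The opposite shape was that of BRA06G0041865 (A06:3384615-3384951). Its TPM was 2.45, 5.93 and 4.55 in monoploid, 8.22 and 8.44 in diploid, and 14.4, 42.9 and 8.73 in autotetraploid leaves. The second step of 1.40 was larger than the first of 0.95, but it came from autotetraploid replicates 1 and 2, and replicate 3 exceeded the higher diploid library by only 0.05 on the log2 scale.

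The remaining genes among the 12 with the largest smaller step differed in how well their libraries agreed. BRA03G0030687 had 1.47, 2.04 and 1.94 TPM in monoploid, 5.76 and 4.67 in diploid, and 14.9, 10.3 and 9.22 in autotetraploid leaves, with steps of 1.52 and 1.14 and groups well apart. BRA10G0011969 was similar in level, at 2.18, 1.46 and 1.38, then 4.90 and 4.73, then 7.45, 12.7 and 7.44 TPM, with steps of 1.53 and 0.93. BRA03G0026593 had 2.07, 1.23 and 3.09, then 7.24 and 6.43, then 9.66, 15.8 and 12.5 TPM, with steps of 1.68 and 0.89. In these 3 genes the lowest autotetraploid library stood at least 0.42 above the higher diploid library on the log2 scale.

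In other genes of that group 1 library set a boundary. BRA03G0026861, a long gene model of 9032 bp, had 6.17, 7.82 and 24.3 TPM in monoploid, 44.1 and 59.3 in diploid, and 108, 80.2 and 149 in autotetraploid leaves, where monoploid replicate 3 was far above the other monoploid libraries. The same library was also the high one in BRA07G006440, at 1.89, 2.25 and 9.76 TPM in monoploid, 24.8 and 25.1 in diploid, and 34.5, 51.0 and 47.5 in autotetraploid leaves. BRA08G007932 had a split diploid pair, with 4.94, 6.13 and 5.46 TPM in monoploid, 10.0 and 32.8 in diploid, and 59.7, 34.4 and 43.7 in autotetraploid leaves. There diploid replicate 2 was 0.07 on the log2 scale below the lowest autotetraploid library, and diploid replicate 1 lay nearer to the monoploid ones.

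BRA07G005541 likewise passed the order by a narrow margin at the second step. Its TPM was 7.92, 12.5 and 9.09 in monoploid, 23.4 and 17.9 in diploid, and 62.0, 32.5 and 24.3 in autotetraploid leaves. Autotetraploid replicate 3 exceeded diploid replicate 1 by 0.05 on the log2 scale.

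**Figure D3:**
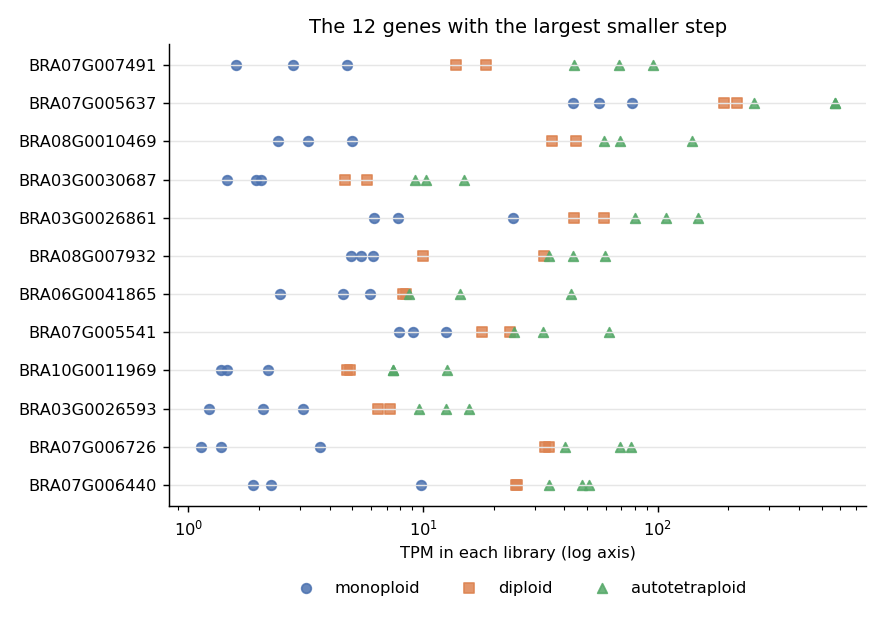
TPM of the 12 genes with the largest smaller step in every library, on a log axis, with circles for monoploid, squares for diploid and triangles for autotetraploid libraries. Clear space separates the groups in BRA07G007491, whereas in BRA06G0041865, BRA07G005541 and BRA08G007932 the lowest triangle touches the highest square.

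Some genes rose by nearly the same ratio each time. BRA06G0041180 had steps of 0.56 and 0.56, with a TPM of 1.09, 2.00 and 1.47 in monoploid, 2.28 and 2.199 in diploid, and 2.56, 4.73 and 2.61 in autotetraploid leaves. It was a low gene in which autotetraploid replicate 2 stood apart from the others. BRA01G0017996 had close autotetraploid libraries and a wider diploid pair, at 3.55, 4.81 and 3.88, then 5.42 and 7.64, then 10.3, 10.8 and 11.1 TPM, and steps of 0.68 and 0.72. BRA05G0045450 had steps of 0.54 and 0.49 at 7.16, 10.7 and 5.95, then 12.1 and 11.0, then 16.7, 14.1 and 17.9 TPM, and monoploid replicate 2 was only just below the lower diploid library.

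Abundant transcripts were few in the set. BRA03G0025892, with the highest mean, had 131, 247 and 149.7 TPM in monoploid, 285 and 280.3 in diploid, and 369, 354 and 343 in autotetraploid leaves. The autotetraploid libraries were close together and clearly above the diploid pair, while monoploid replicate 2 was nearer to the diploid pair than to the other monoploid libraries. BRA03G0027217 had 97.4, 101 and 124, then 272 and 295, then 446, 486 and 331 TPM, with steps of 1.40 and 0.57. BRA06G0040218 rose evenly by smaller steps of 0.41 and 0.40, at 111, 105 and 145, then 161 and 159, then 193, 228 and 211 TPM.

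At the limit of 0.3, the last genes inside were BRA08G009964 and BRA08G008232, with smaller steps of 0.307 and 0.303. BRA08G009964 had 3.29, 3.31 and 2.48 TPM in monoploid, 3.58 and 4.22 in diploid, and 5.29, 4.26 and 4.94 in autotetraploid leaves. BRA08G008232 had 8.56, 11.5 and 9.01, then 16.4 and 16.3, then 19.1, 19.4 and 22.0 TPM, so genes at the limit can be either loosely or tightly ordered. The first genes outside were BRA08G009743, with a first step of 0.297 and a second step of 1.36, and BRA01G0018048, with a first step of 0.82 and a second step of 0.297. BRA08G009743 missed by its first step, at 2.61, 2.84 and 2.09, then 2.84 and 3.33, then 5.63, 6.17 and 11.95 TPM. BRA01G0018048 missed by its second, at 16.3, 18.9 and 13.8, then 26.97 and 30.6, then 33.0, 38.4 and 34.7 TPM.

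The second boundary was narrower than the first. The gap between the lowest diploid and the highest monoploid library had a median of 0.48 on the log2 scale, from 0.03 to 3.18, and it was at least 0.3 in 65 genes. The gap between the lowest autotetraploid and the highest diploid library had a median of 0.18, with a highest value of 1.24. It was under 0.1 in 28 genes and at least 0.3 in 20. In BRA07G007029, picked out after its values were seen as the narrowest case, autotetraploid replicate 2 and diploid replicate 1 both had 3.17 TPM, and the former was above the latter in the fourth decimal only.

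Set against the spread within groups, the gap at the second step was smaller than the range among the autotetraploid libraries in 71 genes. It was larger than the range within both the diploid and the autotetraploid group in 24 genes, and the gap at the first step was larger than the range within the monoploid and the diploid group in 41. Both held in 12 genes, which were counted after the values were seen. BRA03G0030245, 1 of these 12, had 28.5, 28.2 and 27.2 TPM in monoploid, 56.3 and 59.1 in diploid, and 74.6, 67.7 and 72.2 in autotetraploid leaves. BRA05G0046118, another, had 33.7, 24.6 and 29.5, then 50.2 and 47.6, then 65.3, 59.1 and 63.1 TPM. In both genes the groups were further apart than the libraries within them.

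Within groups, the 100 genes varied more than eligible genes in general at the monoploid and autotetraploid levels and slightly less at the diploid level. The median log2 range was 0.56 against 0.40 among monoploid libraries, 0.15 against 0.17 between the diploid libraries, and 0.39 against 0.32 among autotetraploid libraries. With 2 diploid libraries that both had to lie between the other groups, the rule itself limits their range. Autotetraploid replicate 2 was the highest of its group in 42 of the 100 genes, replicate 3 in 36 and replicate 1 in 22, and the corresponding shares of all eligible genes were 37.1%, 31.7% and 31.2%.

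The count of 100 was compared with the counts that the same rule gives when the library labels are assigned otherwise. Of the 560 ways to give the 8 libraries 3 low, 2 middle and 3 high places, the median count was 1 gene and the mean 6.37, and 6 gave 100 or more, the deposited labels among them (one-sided exact permutation test over the assignments, p = 0.0107, where the smallest possible is 0.00179). Most of these assignments mix monoploid with other libraries. The monoploid libraries stood apart from the others for many genes, as every diploid library lay above every monoploid library in 48.9% of eligible genes, whereas every autotetraploid library lay above every diploid library in 4.14% and both orders held in 1.77%, or 266 genes.

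With the monoploid labels kept in place, the diploid and autotetraploid labels could be assigned in 10 ways, and the counts ranged from 22 to 307 with a median of 76.5. The deposited labels gave the fourth highest count, and 4 of the 10 gave 100 or more (one-sided exact permutation test, p = 0.4, where the smallest possible is 0.1). The mean of the other 9 assignments was 114 genes. The count under the deposited labels thus lay within the range of the other assignments of the same 5 libraries. The largest count, 307, came with diploid replicate 2 and autotetraploid replicate 3 in the middle place, and the next, 206 and 180, came with autotetraploid replicate 3 and another autotetraploid library there. After median-ratio rescaling the deposited labels gave 126 genes and 2 of the 10 assignments reached that count (p = 0.2 by the same exact permutation test), and after quantile normalization they gave 117 and again 2 of the 10 did (p = 0.2).

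**Figure D4:**
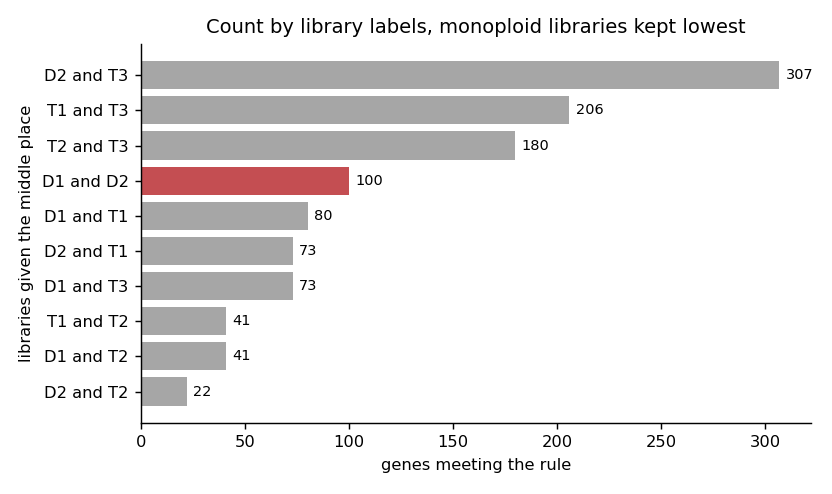
Number of genes that meet the rule for each of the 10 ways to place 2 of the 5 diploid (D) and autotetraploid (T) libraries in the middle, with the 3 monoploid libraries kept lowest. Numbers after the letters are replicate numbers, and the red bar is the deposited labelling, at 100 genes in a range of 22 to 307.

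The same rule was applied to the other orders of the 3 groups. It gave 159 genes with the autotetraploid between monoploid and diploid, and 187 genes that fell at both steps. The orders with the monoploid in the middle gave 1 gene with the diploid lowest and 5 with the autotetraploid lowest, and 23 genes had the diploid lowest and the monoploid highest. Genes rising at both steps were thus fewer than those falling at both, and the monoploid was rarely the middle group. These counts are for TPM as deposited, in which the second step of all eligible genes had a median of -0.09. The count of genes falling at both steps is given for that scaling only.

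To measure the steps in libraries that did not choose the genes, the rule was applied to 2 monoploid, 1 diploid and 2 autotetraploid libraries, and both steps were read in the 1 library of each group that was left out. This was done for all 18 choices, which share libraries among them and gave 209 to 517 genes each. The same 1 diploid library entered both steps of a choice, so a low value in it lowers the first step used and raises the second. How far this made the libraries used differ from those left out was not tested. The median first step over the choices was 0.73 in the libraries used. In the libraries left out it was 1.02, from 0.59 to 1.22, against 0.33 over all eligible genes, and a median of 95.9% of chosen genes were higher in the diploid library left out, against 71.6% of all genes.

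The first step in the libraries left out was smaller than in those used in 4 of the 18 choices, all with monoploid replicate 2 left out. In these 4 it was 0.59 to 0.75. Over all choices with monoploid replicate 2 left out it was 0.59 to 0.94, against 0.96 to 1.22 with another monoploid library left out.

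The second step was much smaller in the libraries left out than in those used. In the libraries used, the median second step of the chosen genes was 0.41 to 0.48. In those left out it had a median of 0.08 over the 18 choices, from -0.20 to 0.19, and it was above 0 in 15 of the 18. The 3 choices that leave out the same diploid and autotetraploid library read this step in the same pair. They are thus not separate measures of it. With a smallest step of 0 in place of 0.3, the median over the choices in the libraries left out turned to -0.039. All eligible genes had medians of -0.13 to -0.06 in the same libraries. A median of 58.9% of the chosen genes were higher in the autotetraploid library left out, with a range of 33.6% to 76.2%, against 36.4% of all eligible genes. Both steps were upward in a median of 54.3% of the chosen genes and in 21.5% of all genes.

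The outcome depended on which pair was left out. With diploid replicate 1 and autotetraploid replicate 3 left out, the median second step was -0.20 to -0.19 over the 3 monoploid libraries left out, below the -0.09 of all genes there. The highest values, 0.15 to 0.19, came with autotetraploid replicate 2 left out. The chosen genes stood above all eligible genes in the 15 choices other than those with diploid replicate 1 and autotetraploid replicate 3. Over all genes tested with limma, the deviations of diploid replicate 2 and autotetraploid replicate 3 from their group means had a correlation across genes of 0.27, and genes are not independent replicates. Its part in these results was not tested.

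**Figure D5:**
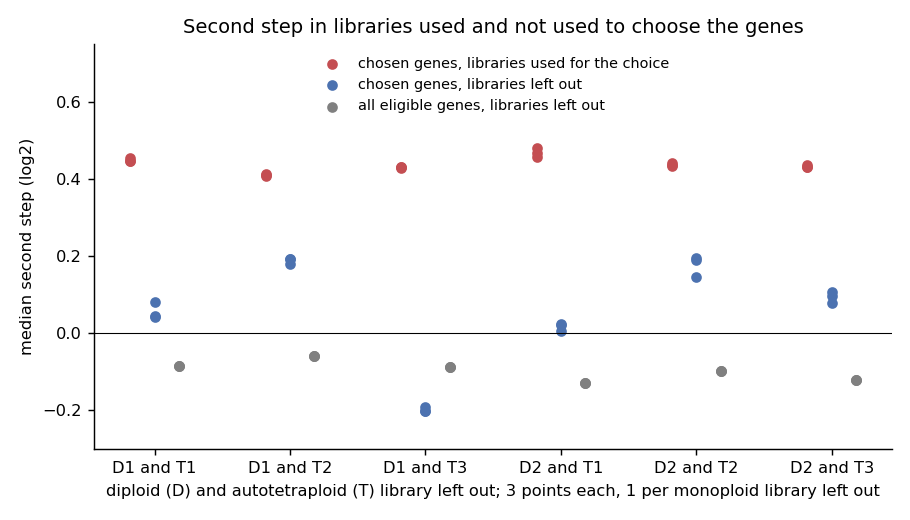
Median second step (log2) of the genes chosen by the rule on 5 libraries, for each pair of diploid (D) and autotetraploid (T) library left out, with 3 points for the monoploid libraries left out. Red points are the chosen genes in the libraries used, at 0.41 to 0.48, blue points the same genes in the libraries left out, at -0.20 to 0.19, and grey points all eligible genes in the libraries left out.

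Gene by gene, the linear model fitted with limma to all 25652 expressed genes uses the values that chose the genes, so its counts are a description. With p-values adjusted by Benjamini-Hochberg and a limit of 0.05, 66 of the 100 genes were higher in diploid than monoploid leaves, where 24.3% of all tested genes were, and 100 were higher in autotetraploid than monoploid leaves, where 26.2% were. None of the 100, that is 0, were called higher in autotetraploid than diploid leaves, where 0.0195% of all tested genes, or 5, were. The lowest limma adjusted p of the 100 at that step was 0.28, and 44 of them had an unadjusted p of at most 0.05, as did 2.18% of all genes in that direction. The contrast of 2 times diploid against the sum of the others called 2 of the 100 as unequal, BRA03G0028394 and BRA06G0041249, where 2.35% of all genes were called, and both had the diploid above the midpoint. Without diploid replicate 1 the calls of diploid over monoploid were 28 of the 100 and without diploid replicate 2 they were 38, and neither gene was called unequal in either case. BRA06G0041249 had 14.1, 17.5 and 20.7 TPM in monoploid, 80.3 and 73.6 in diploid, and 95.3, 108 and 89.2 in autotetraploid leaves.

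The 100 genes were spread over the 7 chromosomes used. There were 26 on A03, 19 on A07, 16 on A01, 14 on A06, 14 on A08, 6 on A10 and 5 on A05. As a share of eligible genes this was 0.933% on A07, 0.844% on A08 and 0.821% on A03, against 0.355% on A10 and 0.250% on A05. On the plus strand were 49 of the 100 and 49.9% of eligible genes.

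They were expressed at a lower level than eligible genes in general, with a median mean TPM of 9.48 against 13.3. Of the eligible genes with a mean TPM of 1 to 5, 1.25% belonged to the set, against 0.559% from 5 to 20, 0.562% from 20 to 100 and 0.399% from 100 to 500. The gene models were also somewhat shorter, with a median span of 1609.5 bp against 1833 bp. The set held 11 of 824 eligible genes under 500 bp, or 1.33%, and 7 of the 1751 longest, of 4 kb or more, or 0.400%. None, or 0, of the 100 overlapped another gene model. Of all eligible genes 54 did, or 0.360%, so that a count of 0 is close to the general share.

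One pair of the set was adjacent. BRA08G0010470 (A08:16368394-16369400) lay 436 bp from BRA08G0010469, on the same strand, with no gene model between. It had 10.0, 11.7 and 9.79 TPM in monoploid, 17.96 and 17.8 in diploid, and 20.02, 28.4 and 20.1 in autotetraploid leaves. Its steps of 0.77 and 0.35 were much smaller than the 3.51 and 1.16 of its neighbour, and autotetraploid replicate 2 was the highest library in both. No sequence was used here, so reads shared between similar copies of a gene were not examined.

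The next nearest pairs had other gene models between them. BRA01G0017543 and BRA01G0017537 lay 45650 bp apart with 5 gene models between, and 5 pairs in all were within 100 kb. BRA01G0017543 had 8.59, 6.83 and 6.87 TPM in monoploid, 14.8 and 16.3 in diploid, and 21.4, 23.0 and 17.6 in autotetraploid leaves. BRA01G0017537 had 2.64, 2.06 and 1.57, then 6.30 and 3.96, then 7.29, 8.09 and 7.14 TPM. BRA03G0027887 and BRA03G0027900, 59075 bp apart with 12 gene models between, differed from most of the set in that the second step was the larger in both, at 0.81 and 1.08 in the former and 0.33 and 0.58 in the latter. BRA03G0027887 had 2.23, 2.72 and 4.44, then 6.42 and 4.53, then 12.5, 8.18 and 13.95 TPM, and BRA03G0027900 had 3.10, 2.45 and 2.75, then 3.62 and 3.35, then 6.66, 3.99 and 5.03 TPM.

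The nearest eligible gene models on either side had median steps close to those of eligible genes in general, with a larger share rising at the second step. The 197 distinct neighbours that were not themselves in the set had a median first step of 0.33 and a median second step of -0.06, close to the 0.29 and -0.09 of all eligible genes. The second step was above 0 in 37.1% of the neighbours, against 29.7% of all eligible genes, and the first step in 75.1% against 71.97%. None, or 0, of the neighbours had the order of monoploid, diploid and autotetraploid without overlap, which 1.11% of all eligible genes outside the set had, so that a count near 0 is close to the general share.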

How the data were processed

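RNA-seq tables of 8 leaf libraries were used, of the 38 samples of the series. The ATAC-seq and ChIP-seq samples were not analysed here. Read trimming with fastp, alignment with HISAT2 and quantification with StringTie were done by the authors (versions 0.21.0, 2.2.1 and 1.3.5 in the submitters' processing notes, while the methods text gives another HISAT2 version). The genome build and annotation are not given in the sources used here. The deposited TPM values add up to an equal sum per library. FPKM, as deposited, is a fixed multiple of TPM within a library and served as an alternative. The deposited coverage values, the mean depth over a gene model, were used only to state depth. Left unused were 3 extra columns of the first monoploid table. The authors counted reads with featureCounts and tested counts with DESeq2, which TPM cannot repeat. As the tables give no counts, no counting interval was computed.

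The rule, the library assignments and the choices of libraries left out were computed in Python 3.11.15 with pandas 2.3.3 and numpy 2.4.6, and figures were drawn with matplotlib 3.10.9. The 25652 genes that reached a TPM of 1 in 2 or more libraries were tested on log2(TPM + 1) with limma 3.58.1 in R 4.3.3, in 1 fit over the 3 ploidy levels with eBayes trend and Benjamini-Hochberg adjustment over all genes. Fold changes on that scale understate those of low genes, so steps in the text are log2 ratios of mean TPM. The scripts were tested on simulated data. The genes and settings were chosen with earlier results of these data known. Genes named are those with the 12 largest smaller steps, the 3 largest first and second steps, the 4 highest means, the 3 most equal steps among the 50 with the largest smaller step, the 3 closest pairs and those beside the limit of 0.3; a few others were picked after their values were seen. The alternatives were other scalings, FPKM, other filters, pseudocounts, steps and thresholds, a replicate block and each library left out. The IDs matched 0 entries of the RefSeq gene table of CAAS_Brap_v3.01.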

Additional observations from a re-analysis of the deposited data

How the results depend on the processing

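The count of 100 genes was 126 with median-ratio rescaling, 117 with quantile normalization and 102 with no upper limit of mean TPM. It was 44 with FPKM, 36 with a TPM of at least 5, 167 with a TPM above 0, 40 and 266 with smallest steps of 0.5 and 0, 237 with overlap allowed, and 215 on all 10 chromosomes. The count of 100 is thus that of the 7 chromosomes used and not of the whole genome. With single libraries left out it ranged from 109 to 256, with 256 without diploid replicate 1, 195 without diploid replicate 2, 179 without autotetraploid replicate 1 and 205 without autotetraploid replicate 3; leaving out a library removes conditions of the order. Of the 100 genes, 71 met the rule after median-ratio rescaling and 80 after quantile normalization, where the median first step of all eligible genes fell from 0.29 to 0.03 and 0.10. The median first step of the 100 was 0.62 with median-ratio rescaling, and the median second step was 0.52 with it and 0.40 on log2(TPM + 1); with single libraries left out they were 0.82 to 1.02 and 0.45 to 0.48. With a smallest step of 0, the step in libraries left out was 0.66 at the first step and reversed to -0.039 at the second; the cause was not tested.

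Calls by limma of higher levels in diploid than monoploid, 66, were 39 with median-ratio rescaling, 37 at an adjusted p of 0.01, 34 with a log2 fold change of at least 1, and 28 to 72 with single libraries left out, with 28 without diploid replicate 1 and 38 without diploid replicate 2. In those fits the lone diploid library is assumed to vary like the other groups. Calls between autotetraploid and diploid stayed at 0 in all 18 alternatives, and those between autotetraploid and monoploid were 68 to 100. The 68 came with a mean TPM of at least 5, which leaves out the 32 members with a mean TPM of 1 to 5. The next lowest, 69, came with a log2 fold change of at least 1. Unequal steps, 2 genes, were 1 with median-ratio rescaling, 0 at an adjusted p of 0.01, and 0 to 4 with single libraries left out, with 0 without either diploid library and 4 without monoploid replicate 3.

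Same-numbered libraries deviated together by 0.22, 0.18 and 0.08 between autotetraploid and monoploid, where libraries of different number had -0.19 to -0.02. The deviations within a group cancel by construction, so the values of different number follow in part from the same-numbered ones. Between diploid and monoploid the same-numbered values were -0.04 and -0.08, and between diploid and autotetraploid they were 0.03 and -0.22. The deviations of the 2 diploid libraries mirror each other by construction, so the diploid values say little on pairing. Whether the numbers pair the libraries was thus not settled. With the replicate block the calls were 52, 0 and 98 for the comparisons of diploid with monoploid, autotetraploid with diploid and autotetraploid with monoploid, and 2 for unequal steps.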
